A study of Mus musculus with 21 samples.

Results

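The cholesterol and isoprenoid synthesis genes were measured in mouse midbrain after MPTP, a neurotoxin used to model Parkinson's disease, and irisin, a hormone released by muscle. The set held the 41 genes that the deposited gene annotation assigned to the KEGG pathways Terpenoid backbone biosynthesis (22 genes) or Steroid biosynthesis (19 genes), of 33829 genes listed for the irisin pre-treatment experiment, and no gene belonged to both pathways. Members were chosen by this annotation and not by a threshold on values, but the pathways were picked with measured fold changes of these mice already known, so that the tests below describe the set. All 41 genes were also found, by gene identifier, among the 55385 genes listed for the delayed treatment experiment. Cyp51 and Msmo1 carried neither pathway there and were matched by identifier alone. By position in the pathway, 10 genes belonged to the mevalonate arm, 12 to prenyl chain synthesis and transfer, 3 to the steps from squalene to lanosterol, 9 to the steps from lanosterol to cholesterol, and 7 to sterol esters and vitamin D.

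Cells build cholesterol from acetyl-CoA through mevalonate. Mevalonate gives isoprenoid units, which are joined into farnesyl diphosphate. From there one branch leads through squalene and lanosterol to cholesterol, and the others lead to dolichol, to the side chain of ubiquinone, and to the prenyl groups placed on proteins. The brain makes its own cholesterol because plasma lipoproteins do not cross the blood-brain barrier, and oligodendrocytes use large amounts of it for myelin. When sterols are scarce, the transcription factor SREBP2, encoded by Srebf2, raises most enzymes of the pathway together. A core of 19 genes, the enzymes from HMG-CoA synthase to cholesterol, is therefore described as a group below.

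Each of the 7 groups held 3 male C57BL/6 mice, 6 weeks old, and every agent was given by intraperitoneal injection. In the pre-treatment experiment (9 mice), control mice received ddH2O for 10 days, MPTP mice received ddH2O for 5 days and then MPTP at 30 mg/kg/day for 5 days, and irisin pre-treated mice received irisin at 200 µg/kg/day for 5 days and then the same MPTP course. In the delayed treatment experiment (12 mice), control mice received ddH2O for 10 days, irisin mice received ddH2O and then irisin, MPTP mice received MPTP and then ddH2O, and delayed irisin mice received MPTP and then irisin, each for 5 days at the same doses. The pre-treatment experiment held no group given irisin without MPTP. The tissue was labelled midbrain, and the study's methods describe nigral tissue dissected by hand after perfusion. Replicate mice carried separate labels.

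Library totals, in M (1e+06) gene counts, ran from 66.7 to 75.6 M with pre-treatment and from 48.8 to 77.2 M with delayed treatment. Markers of dopaminergic neurons, neurons, glia and endothelium were detected in both experiments, and none of the markers examined was at 0 in every mouse. Choroid plexus markers (Ttr, Folr1, Kl and Clic6), which mark an epithelium outside the midbrain, summed to 1623 CPM (counts per 1e+06 counts) in MPTP mouse 2 of the pre-treatment experiment and to at most 25.4 CPM in each of the other 8 mice. In the delayed treatment experiment the same sum passed 1000 CPM in control mice 1 and 2, MPTP mouse 3 and delayed irisin mouse 2. For the pre-treatment experiment, fold changes that moved by over 1.5 times without MPTP mouse 2 are therefore also given without it. The 2 experiments were deposited as separate tables, and levels were tested only within each.

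Expression of the pathway was led by Hmgcs1, which makes HMG-CoA. Levels between genes were compared as FPKM, which corrects for transcript length. Hmgcs1 stood first in both experiments, with a mean level of 61.9 FPKM over the 9 mice and 55.5 FPKM over the 12 mice. In the pre-treatment experiment Acat1, a mitochondrial thiolase, followed with 27.6 FPKM, Cyp51, the demethylase that acts on lanosterol, with 26.6 FPKM, and Sc5d, a sterol desaturase, with 26.0 FPKM. In the delayed treatment experiment Acat1, Cyp51 and Sc5d had mean levels of 26.6, 26.4 and 23.3 FPKM. Thus Hmgcs1 messages stood well above those of the other enzymes named in both data sets.

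**Figure D1:**
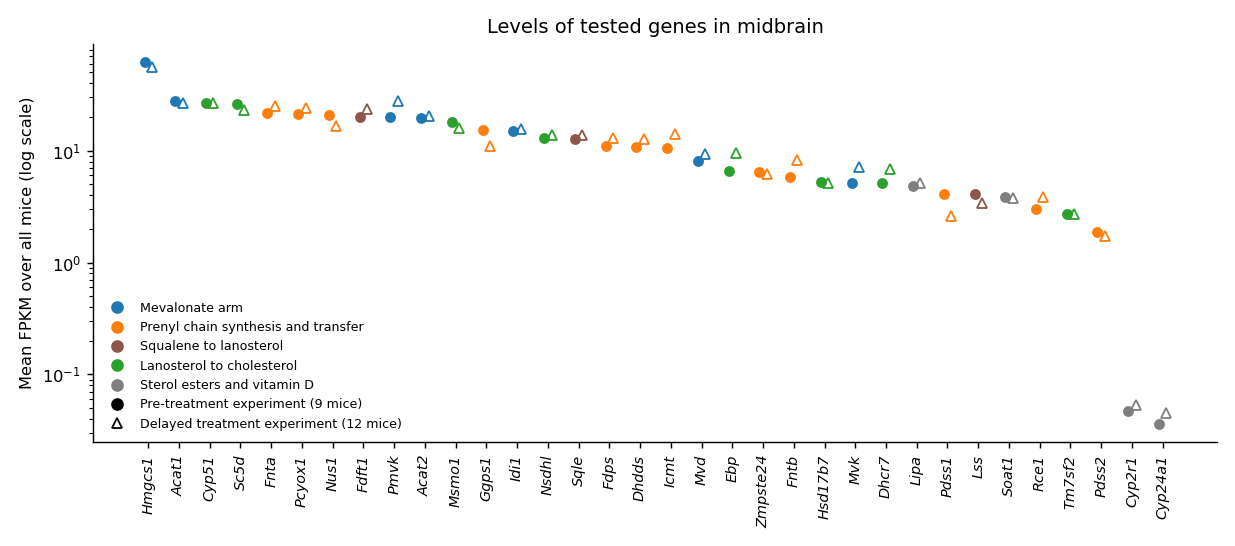
Mean level of tested genes, in FPKM on a log scale, over all 9 mice of the pre-treatment experiment (filled circles) and all 12 mice of the delayed treatment experiment (open triangles), coloured by position in the pathway. Hmgcs1 stood highest in both experiments, and Cyp2r1 and Cyp24a1 lay under 0.1 FPKM.

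Of the 41 genes, 37 passed the filter on low counts in each experiment, including all 19 core genes. Idi2 (a second isomerase), Cyp27b1 (a vitamin D hydroxylase), Soat2 (a sterol ester synthase) and Cel (a lipase for sterol esters) did not, and none of them exceeded 19 counts in a mouse. Cyp2r1 and Cyp24a1, both vitamin D hydroxylases, passed with at most 24 counts in a mouse. Coordinates of 39 of the 41 genes equalled those of GENCODE M21 on GRCm38. Reads of 8 members could be shared with an overlapping gene, since strand use in counting was not stated. These were Cyp51 (overlapping Akap9), Fdft1 (Ctsb), Tm7sf2 (Vps51), Fntb (Rab15 and Churc1), Ggps1 (Arid4b), Icmt (Rnf207), Pdss1 (Abi1) and Cyp24a1 (Pfdn4). Acat2 has a close copy, Acat3, so that its counts are also uncertain.

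Promoter windows, from 250 bases before to 50 bases after the start, were taken from RefSeq (GRCm38.p6), where 31 of the 41 genes and 14 of the 19 core genes were matched by symbol. The letters CCAAT, the box bound by NF-Y, occurred on either strand in the windows of 14 of 14 core genes (100%), of 9 of 17 other matched members (52.9%) and of 41.1% of all 27025 genes. GGGCGG, the box bound by Sp1, was found in the windows of 13 of 14 core genes (92.9%), of 10 of 17 other matched members (58.8%) and of 38.2% of all genes. TCACNCCAC, searched as a form of the element bound by SREBP, was found for Hmgcs1 alone among the matched members, starting 137 bases before its start, and for 1.44% of all genes. Each motif was counted on its own on both strands, and a match describes the letters only. The 120 bases before the start are shown for 6 of the core genes whose values are described below, as examples, 5′ to 3′ on the strand of the gene, with matches to CCAAT or GGGCGG on either strand in capitals. For Dhcr7, which has 3 windows, the window with CCAAT is shown.
Hmgcs1 (chr13:119690231-119690350, + strand): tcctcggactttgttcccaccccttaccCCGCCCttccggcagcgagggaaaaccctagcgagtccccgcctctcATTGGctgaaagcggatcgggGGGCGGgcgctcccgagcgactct
Cyp51 (chr5:4104698-4104817, − strand): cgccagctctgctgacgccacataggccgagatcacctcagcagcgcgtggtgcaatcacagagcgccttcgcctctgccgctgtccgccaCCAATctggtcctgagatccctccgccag
Dhcr7 (chr7:143830094-143830213, + strand): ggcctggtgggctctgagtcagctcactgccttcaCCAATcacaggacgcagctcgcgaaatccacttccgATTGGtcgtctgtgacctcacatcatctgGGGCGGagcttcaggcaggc
Mvd (chr8:122443423-122443542, − strand): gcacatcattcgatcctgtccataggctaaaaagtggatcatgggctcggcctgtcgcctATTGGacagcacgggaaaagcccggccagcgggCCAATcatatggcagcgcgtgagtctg
Idi1 (chr13:8885486-8885605, + strand): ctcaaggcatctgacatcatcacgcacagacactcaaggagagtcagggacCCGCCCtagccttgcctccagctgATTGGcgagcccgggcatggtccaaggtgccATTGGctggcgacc
Msmo1 (chr8:64733579-64733698, − strand): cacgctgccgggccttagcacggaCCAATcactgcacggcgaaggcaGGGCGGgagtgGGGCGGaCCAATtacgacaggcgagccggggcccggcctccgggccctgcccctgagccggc

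Irisin pre-treatment of MPTP treated mice was compared with MPTP alone, since the study asked whether irisin protects against the toxin. The core enzymes were lower as a group in the irisin pre-treated mice. The summed level of the 19 genes was 1308, 1307 and 1268 CPM in the 3 irisin pre-treated mice, 1467, 1709 and 1467 CPM in the 3 MPTP mice, and 1434, 1598 and 1577 CPM in the 3 control mice. Thus every irisin pre-treated mouse lay below all 6 other mice. Relative to the control mean, the median over the 19 genes on the log2 scale was −0.16, −0.15 and −0.24 in the irisin pre-treated mice, −0.01, 0.12 and −0.06 in the MPTP mice, and −0.07, 0.03 and 0.02 in the control mice. Of the 19 genes, 16 were among the lowest 3 of 9 values in irisin pre-treated mouse 3, and 12 were so in each of the other two.

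**Figure D2:**
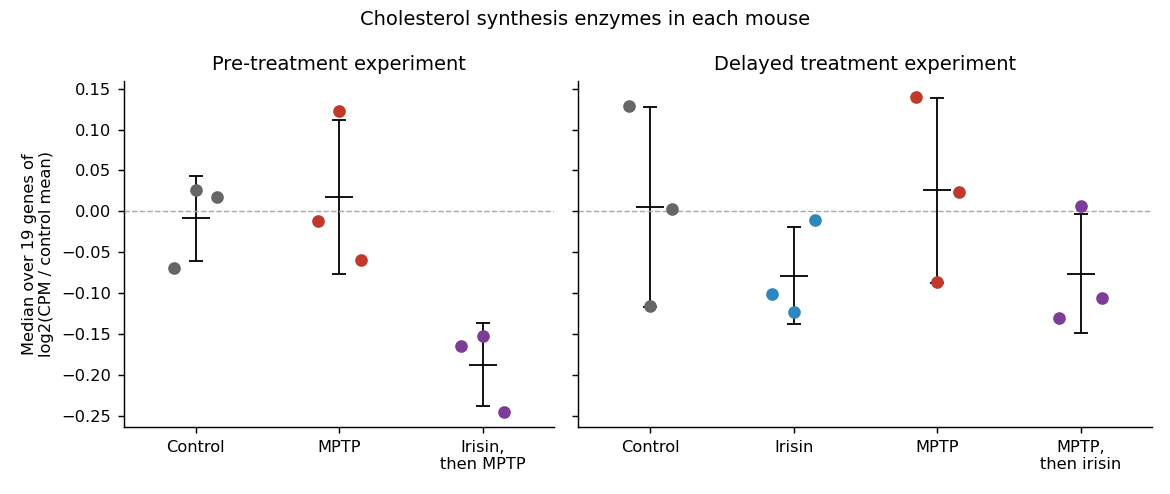
Median over the 19 core genes of the log2 ratio of CPM to the control mean, one point per mouse, with the mean and SD of the 3 mice of each group as bars. The 3 irisin pre-treated mice lay between −0.24 and −0.15, below the 6 other mice of the pre-treatment experiment, whereas the 4 groups of the delayed treatment experiment overlapped.

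By the fit across all genes, no member reached an adjusted p under 0.05 (quasi-likelihood test of edgeR, adjusted over 22641 tested genes by the method of Benjamini and Hochberg), against 0.0707% of all tested genes. At an unadjusted p under 0.05, 10 of 37 tested members were lower (27%), against 3.29% of all tested genes, and 1 was higher, against 2.93%. The log2 fold change (irisin pre-treated minus MPTP) was below 0 for 19 of 19 core genes, against 49.3% of all tested genes, with a median of −0.24 for the core and 0.003 for all tested genes. The 3 mice of one group lay below the 3 of the other for 16 members, against 7.08% of all tested genes, and above them for 2, against 7.14%. DESeq2 called 1 member, Cyp51, with an adjusted p of 0.0344, and limma on log2 FPKM called 0. The share of 0.0707% is that of edgeR, and the share of all genes called by DESeq2 is not given here. For the 16 core genes that overlap no other expressed gene, 16 lay below 0 and the median was −0.23. Without MPTP mouse 2 the core median was −0.12, 16 of 19 core genes lay below 0, and 6 members were lower at an unadjusted p under 0.05. The count of such members was also 6 without irisin pre-treated mouse 2 and without irisin pre-treated mouse 3. Shares of all tested genes are given for the full fit only, so that the counts without a mouse have none beside them.

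Within the mevalonate arm, 5 of 9 tested genes had every irisin pre-treated mouse below every MPTP mouse, against 7.08% of all tested genes. In the higher direction 1 gene had no overlap, against 7.14%. Hmgcs1 measured 263, 267 and 250 CPM in the irisin pre-treated mice, 335, 354 and 333 CPM in the MPTP mice and 310, 412 and 362 CPM in the control mice. The irisin pre-treated mice did not overlap either group, and the log2 fold change against MPTP was −0.39 (SE 0.09, edgeR adjusted p = 0.413). Mvd, which forms the first isoprenoid unit, gave 16.04, 14.2 and 10.4 CPM after irisin pre-treatment against 19.9, 19.04 and 16.4 CPM with MPTP, a log2 difference of −0.45 (SE 0.16, edgeR adjusted p = 0.699). Acat2, the cytosolic thiolase that supplies the pathway, gave 42.0, 45.3 and 39.5 CPM against 48.9, 47.2 and 64.5 CPM, a log2 difference of −0.34 (SE 0.13, edgeR adjusted p = 0.727). Acat1, the mitochondrial thiolase, did not share this pattern and had a log2 fold change of 0.01 (SE 0.06).

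Idi1, the isomerase that interconverts the isoprenoid units, varied far more among mice than its neighbours. It measured 65.7, 90.2 and 73.4 CPM in control mice, 27.3, 90.7 and 32.4 CPM in MPTP mice and 25.9, 60.6 and 62.2 CPM in irisin pre-treated mice. MPTP mice 1 and 3 and irisin pre-treated mouse 1 stood well under the other 6, so that mice of one group differed more than the groups did. Its within-group SD was 0.69 on the log2 scale, the third largest among the tested members after the near-absent Cyp24a1 and Cyp2r1. In the delayed treatment experiment the values of Idi1 lay between 53.8 and 72.8 CPM in all 12 mice.

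From squalene to lanosterol, Sqle, the epoxidase, was the only gene without overlap against MPTP. Sqle stood at 73.1, 73.9 and 71.1 CPM after irisin pre-treatment, 76.95, 89.2 and 78.7 CPM with MPTP and 78.2, 81.5 and 86.3 CPM in controls, a log2 difference against MPTP of −0.17 (SE 0.07, edgeR adjusted p = 0.807), which became −0.10 without MPTP mouse 2. Lss, the cyclase that makes lanosterol, had a fold change of −0.27 (SE 0.13) with overlapping groups, −0.15 without irisin pre-treated mouse 2 and −0.41 without irisin pre-treated mouse 1. Fdft1, squalene synthase, measured 79.0, 87.9 and 109 CPM after irisin pre-treatment and 90.2, 151 and 85.4 CPM with MPTP. The value of 151 CPM came from MPTP mouse 2, and the log2 fold change of −0.24 (SE 0.21) became 0.064 without that mouse. Hsd17b7, a reductase late in the pathway, showed the same layout, with 46.4 CPM in MPTP mouse 2 and 23.4 to 36.9 CPM in the other 8 mice.

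From lanosterol to cholesterol, all 9 tested enzymes had log2 fold changes below 0 against MPTP, from −0.53 to −0.03. Cyp51 had the smallest p of all members. It measured 118, 110 and 107 CPM after irisin pre-treatment, 137, 154 and 144 CPM with MPTP and 128, 151 and 141 CPM in controls, and the log2 fold change was −0.38 (SE 0.08, edgeR adjusted p = 0.262). The irisin pre-treated mice thus lay below both other groups, and Cyp51 stayed at −0.33 without MPTP mouse 2. Dhcr7, which carries out the last step of one route to cholesterol, measured 31.8, 22.6 and 25.9 CPM after irisin pre-treatment against 37.6, 41.0 and 37.4 CPM with MPTP, a log2 difference of −0.53 (SE 0.17, edgeR adjusted p = 0.63). Control mice overlapped both groups for Dhcr7, with 27.6 to 42.5 CPM.

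The prenyl branch was divided. Fdps, which makes farnesyl diphosphate and is a core gene, stood at 46.3, 47.4 and 48.4 CPM after irisin pre-treatment against 54.2, 62.8 and 50.5 CPM with MPTP, a log2 difference of −0.24 (SE 0.09, edgeR adjusted p = 0.724), which became −0.15 without MPTP mouse 2. Dhdds, a subunit of the enzyme that builds the dolichol chain, stood at 33.2, 38.7 and 39.4 CPM against 52.8, 49.2 and 40.8 CPM, a log2 difference of −0.36 (SE 0.11, edgeR adjusted p = 0.609). Its partner subunit Nus1 had a log2 fold change of −0.12 (SE 0.06). The farnesyltransferase subunits Fnta and Fntb gave −0.05 (SE 0.11) and 0.13 (SE 0.11), and the ubiquinone side chain subunits Pdss1 and Pdss2 gave 0.02 (SE 0.10) and 0.11 (SE 0.09). Of the 12 genes of this branch, 7 lay below 0 and 5 above, with a median of −0.05. Without overlap, 4 of the 12 were lower (Fdps, Dhdds, Nus1 and Rce1, a protease for prenylated proteins) and 1 was higher. Over all tested genes these shares were 7.08% and 7.14%. Lipa, the lysosomal sterol ester lipase, and Soat1, which makes sterol esters, were also lower without overlap, at −0.20 and −0.11. Values on the lower side were thus not limited to the enzymes that lead to cholesterol, and the difference between the branches was not tested.

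**Figure D3:**
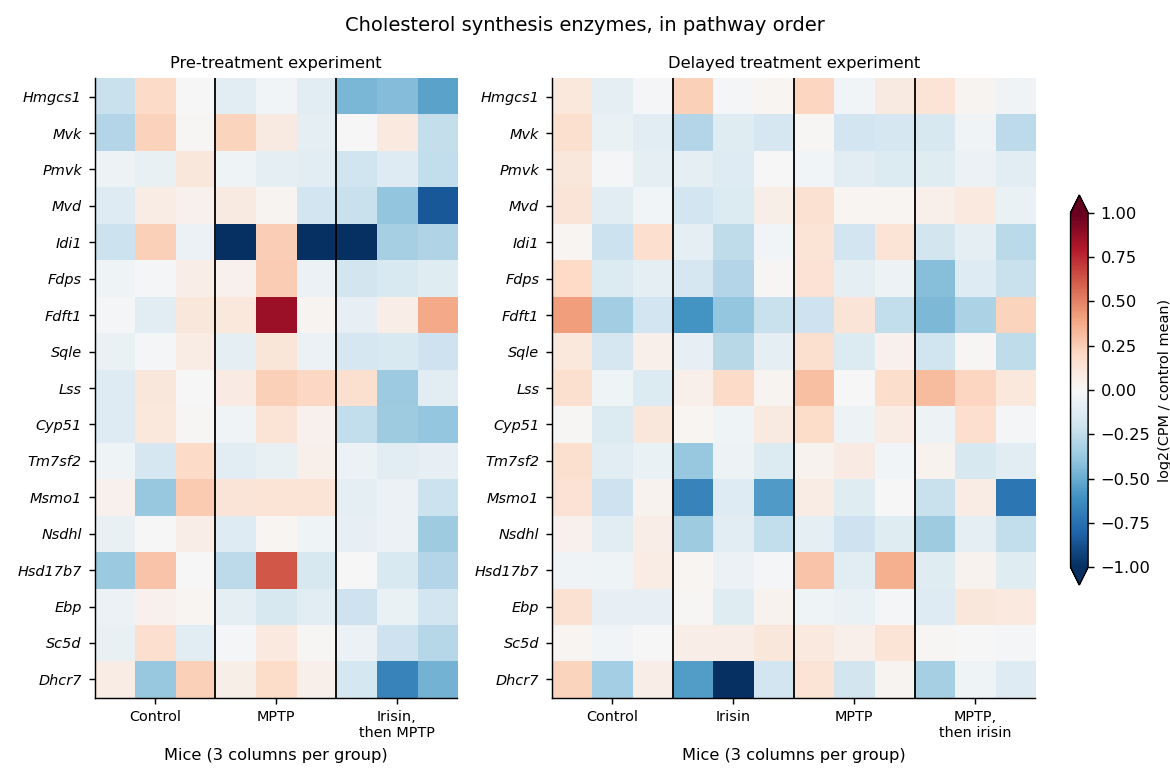
Log2 ratio of CPM to the control mean for core genes, in pathway order, in every mouse of both experiments; blue is below and red above the control mean, and values beyond ±1 take the end colours. The 3 irisin pre-treated columns are mostly blue, Idi1 and Fdft1 differ between mice of one group, and the delayed treatment columns are mixed.

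**Figure D4:**
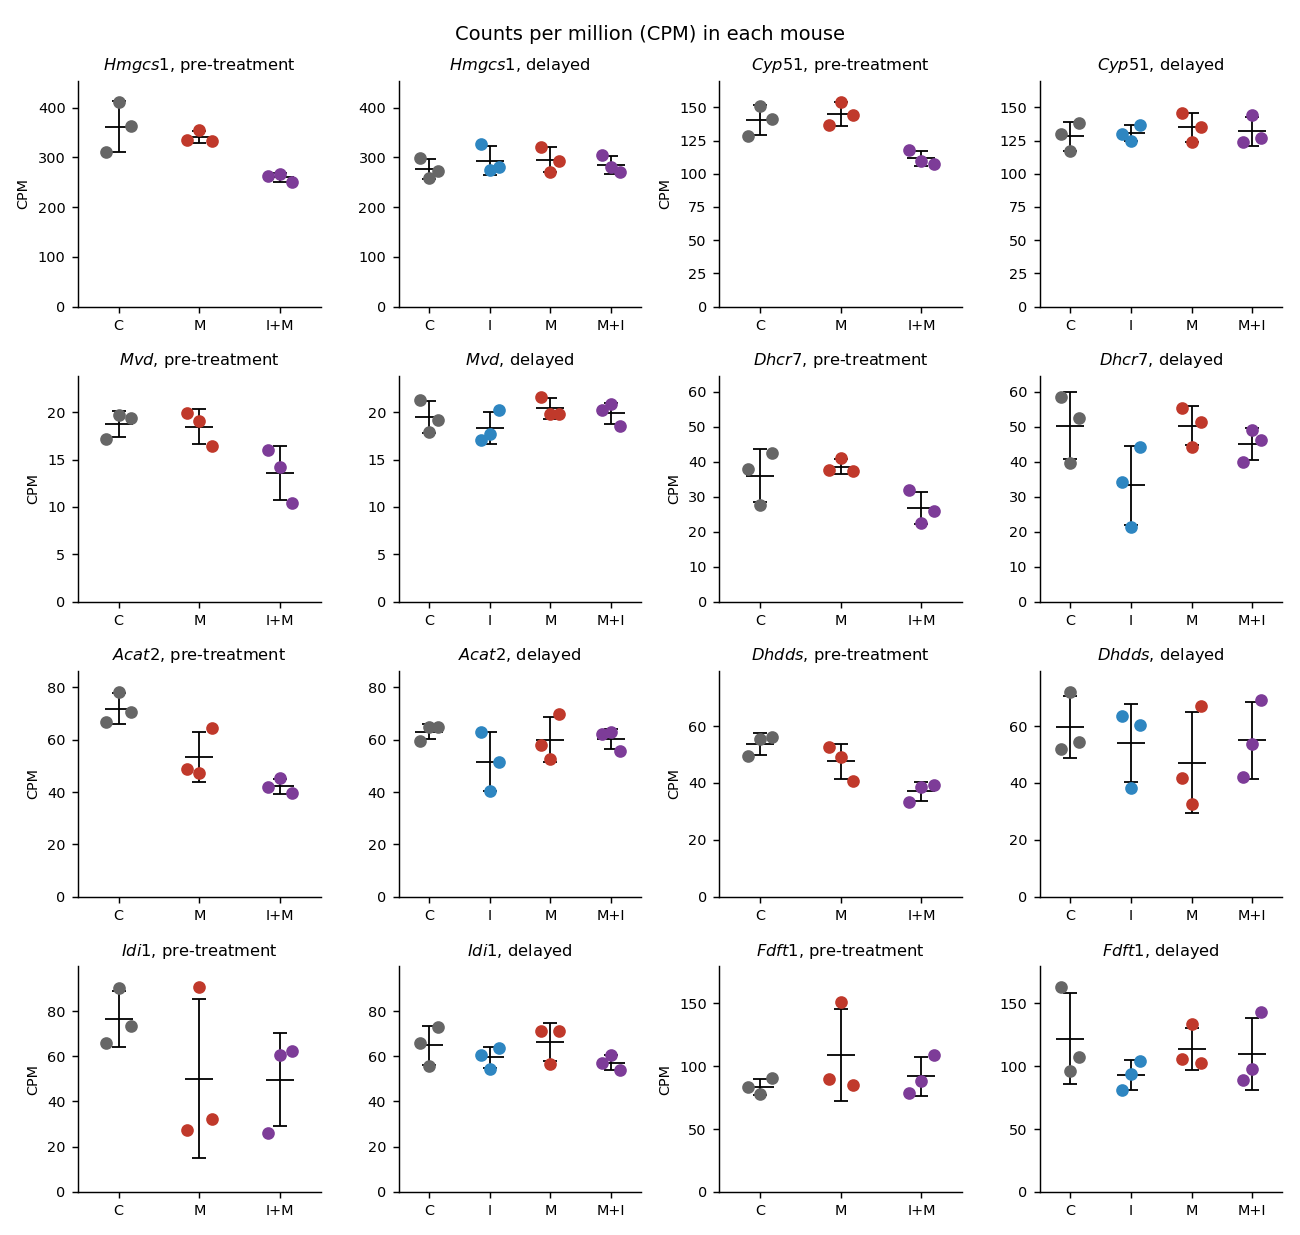
CPM of 8 members in every mouse, on linear axes from 0, with the mean and SD of the 3 mice of each group as bars (C, control; M, MPTP; I, irisin; I+M, irisin then MPTP; M+I, MPTP then irisin). For Hmgcs1, Cyp51, Mvd, Acat2 and Dhdds the 3 irisin pre-treated mice lay below the 6 others, whereas MPTP and irisin pre-treated mice spread widely for Idi1.

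Against control mice, the irisin pre-treated mice gave a similar layout. These fold changes share the irisin pre-treated mice with the comparison above but do not set MPTP mouse 2 on either side. Their SE and p-values still draw on the spread of all 9 mice, MPTP mouse 2 included. At an unadjusted p under 0.05, 9 of 37 tested members were lower (24.3%), against 3.63% of all tested genes, and 0 were higher, against 3.49%. No member reached an adjusted p under 0.05 by edgeR, against 0.0707% of all tested genes. DESeq2 called 3, Acat2 (adjusted p = 0.000157), Hmgcs1 (adjusted p = 0.0153) and Dhdds (adjusted p = 0.0169), and limma called 0. Here too the share of all genes called by DESeq2 is not given. Of the 19 core genes 18 had log2 fold changes below 0, against 49.2% of all tested genes, and Fdft1 was the exception. The core median was −0.16, against 0.004 for all tested genes.

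Acat2 differed most from control, with 66.7, 78.4 and 70.5 CPM in control mice and 42.0, 45.3 and 39.5 CPM in irisin pre-treated mice, a log2 fold change of −0.77 (SE 0.13, edgeR adjusted p = 0.127). Log2 fold changes against control were −0.47 (SE 0.09, edgeR adjusted p = 0.225) for Hmgcs1 and −0.54 (SE 0.11, edgeR adjusted p = 0.277) for Dhdds. For Cyp51 the fold change was −0.33 (SE 0.08, edgeR adjusted p = 0.352). All 4 genes had groups that did not overlap, as did 11 members in the lower direction against 6.92% of all tested genes, and 2 members in the higher direction against 6.65%. Counted against MPTP and control mice together, the 3 irisin pre-treated mice lay below all 6 others for 9 members (24.3% of those tested), against 2.26% of all tested genes. Among them were Hmgcs1, Pmvk, Mvd, Fdps, Sqle and Cyp51 of the core, with Acat2 and Dhdds. Pdss2 was the only member with all 3 above the other 6, against 2.07% of all tested genes.

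Some cell type markers also differed in these mice. Dopaminergic marker genes were below 0 against MPTP for 7 of 7 markers, with summed levels of 182 to 296 CPM after irisin pre-treatment, 244 to 472 CPM with MPTP and 246 to 409 CPM in controls. The sum of 472 CPM came from MPTP mouse 2. MPTP mice 1 and 3, at 244 and 252 CPM, lay within the range after irisin pre-treatment. Slc6a3, the dopamine transporter, measured 28.3, 37.2 and 25.7 CPM after irisin pre-treatment, 51.3, 65.5 and 52.1 CPM with MPTP and 58.9, 106 and 105 CPM in controls. Th, the dopamine synthesis enzyme, stood at 21.3, 34.8 and 24.0 CPM, 34.2, 51.6 and 31.5 CPM, and 34.3, 50.1 and 55.1 CPM in the same order. These 2 genes do not stand for the whole list. For MPTP against control, 5 of the 7 dopaminergic markers lay above 0, with a median of 0.16. Slc6a3 and Th were the 2 below 0. In dissected tissue, fewer cells of a type and less RNA per cell cannot be told apart. Summed astrocyte markers were 938 to 1042 CPM after irisin pre-treatment, 1078 to 1178 CPM with MPTP and 952 to 1186 CPM in controls. Summed oligodendrocyte markers were 8900 to 10977 CPM after irisin pre-treatment, 8283 to 10784 CPM with MPTP and 9136 to 13817 CPM in controls. Against control, 7 of 7 oligodendrocyte markers lay below 0 in the irisin pre-treated mice, with a median of −0.20 and 1 at an unadjusted p under 0.05, beside the core median of −0.16. Against MPTP, 5 of 7 lay below 0 with a median of −0.02. At an unadjusted p under 0.05 against MPTP, 2 of 7 dopaminergic, 1 of 5 astrocyte and 2 of 4 choroid plexus markers were lower. Of 5 microglia markers 1 was higher, and of 4 endothelial markers 2 were higher and 2 lower. For the general neuron, oligodendrocyte and oligodendrocyte precursor markers the count was 0. Over all tested genes the shares were 3.29% lower and 2.93% higher. The part of the dopaminergic, astrocyte and oligodendrocyte markers in the values of the cholesterol genes was not tested.

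By p, MPTP alone showed little in the set in the pre-treatment experiment. The lowest log2 fold change of a tested member was −0.61, that of Idi1. Its groups overlapped, with 27.3 to 90.7 CPM with MPTP and 65.7 to 90.2 CPM in controls. Acat2 was the only member at an unadjusted p under 0.05, lower, against 2.67% of all tested genes in that direction, and 0 members were higher, against 3.36%. Its level was 48.9, 47.2 and 64.5 CPM with MPTP and 66.7, 78.4 and 70.5 CPM in controls, with no overlap and a log2 fold change of −0.43 (SE 0.13, edgeR adjusted p = 0.815). Next by p came Fdft1 at 0.38 (SE 0.22), which became 0.067 without MPTP mouse 2. Lipa stood at 0.14 (SE 0.08), or 0.082 without control mouse 1 and 0.094 without MPTP mouse 3. Dhdds stood at −0.18 (SE 0.11), or −0.083 without MPTP mouse 3, and Ebp, a sterol isomerase, at −0.12 (SE 0.08). Sqle gave −0.01 (SE 0.07), Hmgcs1 gave −0.08 (SE 0.09) and Cyp51 gave 0.05 (SE 0.08). Acat2 and Ebp had all MPTP mice below all control mice, against 5.93% of all tested genes, and 0 members had them above, against 5.71%. The core median was 0.03, with 9 of 19 genes below 0 against 50.4% of all tested genes, and became −0.040 without control mouse 1 and −0.027 without MPTP mouse 2. Oligodendrocyte markers were below 0 for 7 of 7, with a median of −0.19, and their part was not tested. No member reached an adjusted p under 0.05 by edgeR, against 0.0221% of all tested genes, and DESeq2 and limma also called 0.

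**Figure D5:**
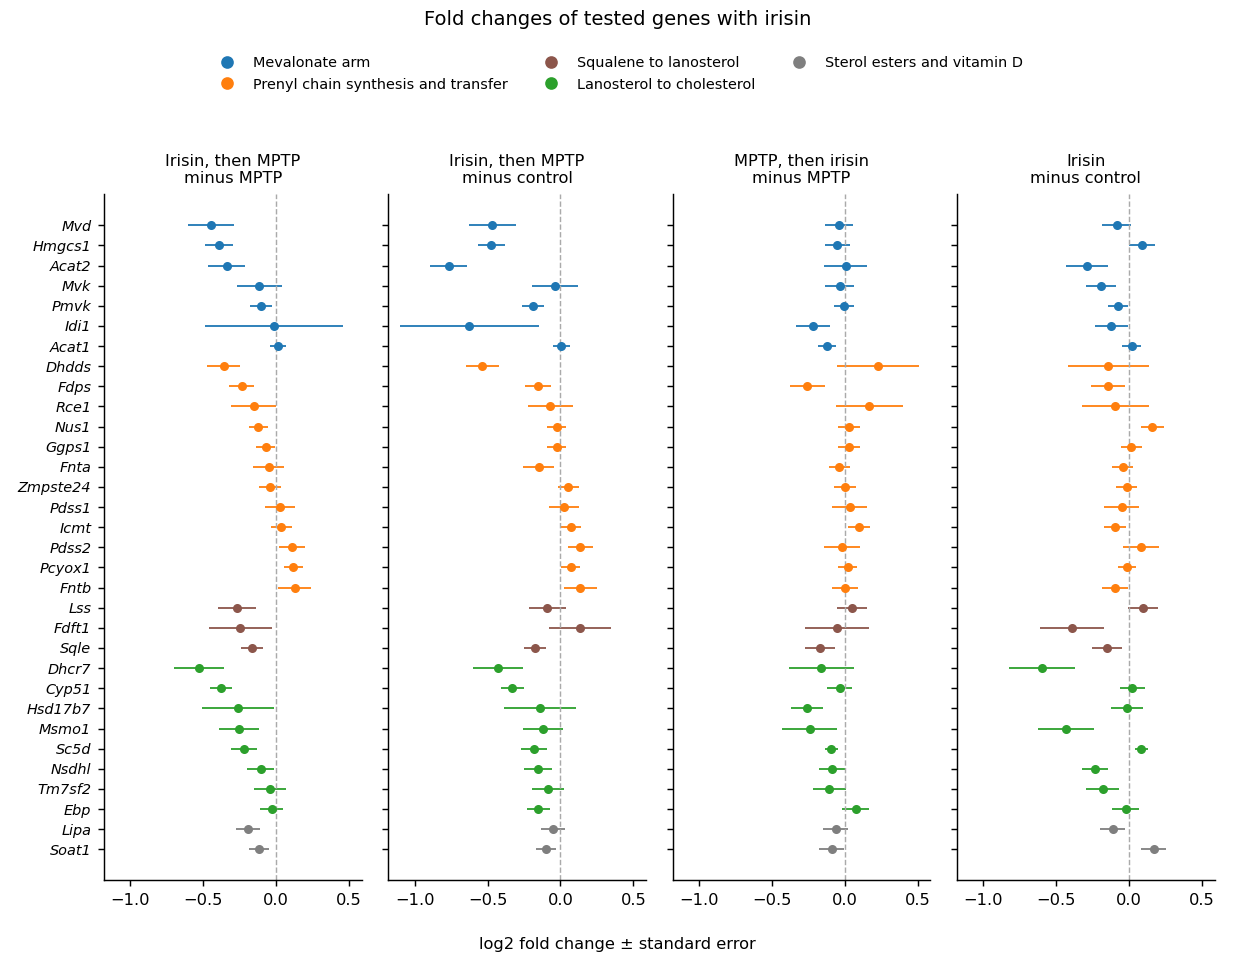
Log2 fold changes with their standard errors (edgeR) for tested members, Cyp2r1 and Cyp24a1 left out, in the 4 comparisons that involve irisin against its own MPTP or control group, coloured by position in the pathway. Most enzymes of the mevalonate arm and from squalene to cholesterol lie left of 0 after irisin pre-treatment, and values lie nearer to 0 after delayed irisin.

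Delayed irisin after MPTP was compared with MPTP alone, to ask whether irisin given after the toxin acts. No member reached an adjusted p under 0.05 by edgeR, DESeq2 or limma, against 0.00456% of the 21922 tested genes by edgeR. At an unadjusted p under 0.05, 2 of 37 members were lower (5.41%), against 1.85% of all tested genes, and 0 were higher, against 2.06%. Of the 19 core genes 17 had log2 fold changes below 0, against 50.1% of all tested genes, with a median of −0.09. Oligodendrocyte markers were below 0 for 7 of 7, with a median of −0.12, 2 without overlap and 1 at an unadjusted p under 0.05, and their part in the values of the cholesterol genes was not tested. The summed core level was 1430, 1537 and 1437 CPM with delayed irisin and 1676, 1484 and 1574 CPM with MPTP, and the groups overlapped. Thus the sizes were smaller than with irisin pre-treatment, which belonged to another experiment, and the difference between the experiments was not tested. Since all 19 core genes lay below 0 with irisin pre-treatment, the count below 0 in both was fixed at the 17 seen here.

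Hsd17b7 gave 26.7, 29.8 and 26.8 CPM after delayed irisin against 35.3, 27.0 and 37.2 CPM with MPTP, a log2 difference of −0.26 (SE 0.11), or −0.16 without MPTP mouse 3. Fdps measured 48.9, 60.1 and 56.5 CPM against 72.8, 61.4 and 63.6 CPM, also −0.26 (SE 0.12), and was one of 2 members without overlap, with Sc5d at −0.09 (SE 0.04), both lower, against 5.38% of all tested genes. The share of all tested genes without overlap and higher was 5.35%, and 0 members were among them. Acat1 was at −0.12 (SE 0.06). Sqle gave −0.17 (SE 0.10) and Dhcr7 −0.16 (SE 0.22), each with overlapping groups, and without MPTP mouse 1 they were at −0.099 and −0.085. Dhcr7 was at −0.082 without delayed irisin mouse 1 and −0.24 without MPTP mouse 2. Genes of small p with irisin pre-treatment differed little here, with −0.05 (SE 0.09) for Hmgcs1 and −0.03 (SE 0.08) for Cyp51, beside −0.05 (SE 0.22) for Fdft1 and 0.05 (SE 0.10) for Lss. Without MPTP mouse 1 the values of Hmgcs1 and Cyp51 became 0.016 and 0.025. Fdft1 became 0.077 without MPTP mouse 2 or delayed irisin mouse 1 and 0.027 without delayed irisin mouse 2, and Lss became −0.023 without MPTP mouse 2. Cyp51 and Lss also changed sign, by smaller amounts, without delayed irisin mouse 1.

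Irisin alone was compared with control in the same experiment. At an unadjusted p under 0.05, 3 of 37 members were lower (8.11%), against 4.44% of all tested genes, and 1 was higher, against 4.53%. No member reached an adjusted p under 0.05 by edgeR, DESeq2 or limma, against 0.109% of all tested genes by edgeR. The 3 lower genes all belonged to the steps from lanosterol to cholesterol. Dhcr7 stood at 34.2, 21.5 and 44.1 CPM with irisin and 58.7, 39.8 and 52.6 CPM in controls, a log2 difference of −0.60 (SE 0.23, edgeR adjusted p = 0.519), or −0.36 without irisin mouse 2. Msmo1, a sterol methyl oxidase, stood at 77.4, 113 and 83.0 CPM against 136, 107 and 126 CPM, a log2 difference of −0.43 (SE 0.19, edgeR adjusted p = 0.545). Both genes had overlapping groups, whereas Nsdhl, the sterol dehydrogenase of the same demethylation, did not. Nsdhl stood at 38.5, 45.5 and 41.6 CPM against 50.9, 45.5 and 51.6 CPM, a log2 difference of −0.24 (SE 0.09, edgeR adjusted p = 0.519), and the closest mice of the groups were nearly level. In all, 2 members had every irisin mouse below every control mouse, against 7.68% of all tested genes, and 3 had them above, against 7.43%.

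The core median with irisin alone was −0.12, with 14 of 19 genes below 0 against 50.5% of all tested genes. It was −0.034 without control mouse 1, −0.21 without control mouse 2 and −0.060 without irisin mouse 2. Hmgcs1 at 0.09 (SE 0.09) and Cyp51 at 0.02 (SE 0.08) lay above 0. Summed core levels were 1426, 1415 and 1476 CPM with irisin and 1685, 1397 and 1539 CPM in controls, with control mouse 2 the lowest of the 12 mice. Summed choroid plexus markers were 59.7 to 290 CPM with irisin and 232 to 1493 CPM in controls, and summed astrocyte markers were 1279 to 1302 CPM with irisin and 1387 to 1604 CPM in controls, without overlap. The part of these markers in the values of the cholesterol genes was not tested. Nus1 gave 0.16 (SE 0.08), or 0.057 without irisin mouse 1. The member that was higher, Cyp2r1, had 8, 21 and 16 counts with irisin and 0, 2 and 0 counts in controls (edgeR adjusted p = 0.479), so few that no fold change is given. It also had 6, 7 and 19 counts in the delayed irisin mice and 0, 4 and 7 counts in the MPTP mice.

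MPTP against control in the delayed treatment experiment gave 2 members higher at an unadjusted p under 0.05 (5.41%), against 4.32% of all tested genes, and 0 lower, against 4.01%. No member reached an adjusted p under 0.05 by edgeR, DESeq2 or limma, against 0.132% of all tested genes by edgeR. Soat1, which makes sterol esters, stood at 46.2, 41.9 and 44.7 CPM with MPTP and 39.0, 40.3 and 36.7 CPM in controls, a log2 difference of 0.19 (SE 0.09, edgeR adjusted p = 0.588). Sc5d stood at 132, 128 and 136 CPM against 126, 122 and 124 CPM, a log2 difference of 0.10 (SE 0.04, edgeR adjusted p = 0.598). Neither gene had overlapping groups, and the share of such genes in this direction over all tested genes was 8.24%. In the other direction 1 member had no overlap, against 7.94%. Hsd17b7 at 0.19 (SE 0.11) and Lss at 0.17 (SE 0.10) followed. Hsd17b7 was at 0.099 without MPTP mouse 3, and Lss at 0.093 without MPTP mouse 1. Without the mice of this experiment whose choroid plexus markers passed 1000 CPM, Hsd17b7 was at 0.026 and Lss at 0.30. The core median was 0.03, with 6 of 19 genes below 0 against 50.3% of all tested genes, and it became −0.050 without control mouse 2 and −0.038 without MPTP mouse 1. Th measured 31.0, 31.5 and 46.0 CPM with MPTP and 63.3, 59.2 and 50.9 CPM in controls.

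Delayed irisin after MPTP against control gave 3 members lower at an unadjusted p under 0.05, against 4.59% of all tested genes, and 1 higher, Cyp2r1 with the counts given above, against 4.72%. Among the lower members were Nsdhl at −0.23 (SE 0.09) and Acat1 at −0.16 (SE 0.06), with edgeR adjusted p of 0.486 and 0.489, and without the mice whose choroid plexus markers passed 1000 CPM Nsdhl was at −0.37. Fdps followed at −0.25 (SE 0.12), or −0.14 without control mouse 1. Of the members, 1 had no overlap in the lower direction, against 7.17% of all tested genes, and 1 in the higher direction, against 7.41%. The core median was −0.10, with 12 of 19 genes below 0 against 50.1% of all tested genes, and was −0.037 without control mouse 1. By edgeR, DESeq2 and limma 0 members reached an adjusted p under 0.05, against 0.109% of all tested genes by edgeR. The interaction of irisin and MPTP asked whether irisin acted differently with and without the toxin, and 0 members reached an adjusted p under 0.05 by edgeR, DESeq2 or limma, against 0.0411% of all tested genes by edgeR. Only Sc5d had an unadjusted p under 0.05, with a log2 interaction of −0.18 (SE 0.06, edgeR adjusted p = 0.893), against 2.76% of all tested genes in that direction and 2.81% in the other. Soat1 at −0.26 (SE 0.12), Icmt, the methyltransferase for prenylated proteins, at 0.20 (SE 0.11), Hsd17b7 at −0.24 (SE 0.16) and Acat1 at −0.14 (SE 0.09) came next by p, and 10 of 19 core genes lay below 0 against 49.5% of all tested genes. Hsd17b7 was at −0.15 without MPTP mouse 3, −0.37 without MPTP mouse 2 and −0.13 without the mice of high choroid plexus markers, and Icmt at 0.11 without delayed irisin mouse 3.

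Dhdds had the third largest within-group SD in the delayed treatment experiment, 0.40 on the log2 scale, after Cyp24a1 and Cyp2r1. Its values were 52.1, 72.1 and 54.4 CPM in control mice, 63.4, 38.3 and 60.2 CPM with irisin, 41.7, 32.7 and 66.9 CPM with MPTP and 42.1, 53.8 and 69.1 CPM with delayed irisin. Thus the 12 mice spread 2.21-fold with no order by group, whereas Sc5d spread 1.12-fold. Cyp24a1 had 0 to 23 counts in each mouse of both experiments.

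Regulators of the pathway and neighbouring lipid genes were read as whole lists. Among 12 genes of SREBP control and sterol uptake, 0 were at an unadjusted p under 0.05 for irisin pre-treatment against MPTP, and 7 lay below 0 with a median of −0.04. Srebf2 measured 112, 122 and 113 CPM after irisin pre-treatment, 138, 134 and 124 CPM with MPTP and 145, 92.4 and 121 CPM in controls, with a log2 fold change against MPTP of −0.19 (SE 0.14, edgeR adjusted p = 0.966). Insig1, which retains the SREBP complex when sterols are plentiful, measured 120, 129 and 118 CPM after irisin pre-treatment, 134, 145 and 122 CPM with MPTP and 130, 151 and 147 CPM in controls. Its log2 fold change was −0.13 (SE 0.09) against MPTP, −0.065 without MPTP mouse 2, and −0.22 (SE 0.09, edgeR adjusted p = 0.661) against control. Insig1, itself a target of SREBP2, thus stood below control without overlap but overlapped MPTP, whereas Srebf2 overlapped the controls and stood below MPTP without overlap. For Insig1 the closest mice were nearly level, at 129.1 and 129.7 CPM. Against MPTP, 3 of the 12 genes were lower without overlap and 2 higher, against 7.08% and 7.14% of all tested genes. Against control, 2 were lower and 1 higher, against 6.92% and 6.65%.

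Among 10 genes of cholesterol efflux and LXR targets, 0 were at an unadjusted p under 0.05 for irisin pre-treatment against MPTP, 5 lay on each side of 0, and the median was −0.001. Of 11 fatty acid synthesis genes, 2 were lower and 1 higher at an unadjusted p under 0.05, with 9 below 0 and a median of −0.10. Of 10 ubiquinone and dolichol genes, 2 were higher and 0 lower, with 9 above 0 and a median of 0.09. Over all tested genes the shares at that p were 3.29% lower and 2.93% higher. For MPTP against control, 9 of the 10 ubiquinone and dolichol genes lay below 0, with a median of −0.08. For irisin pre-treatment against control, 7 of them lay above 0, with a median of 0.05 and 0 at an unadjusted p under 0.05. No gene of these 4 lists reached an adjusted p under 0.05 in any of the 8 comparisons by edgeR. The opposite side of 0 for the ubiquinone list was not seen with delayed irisin against MPTP, where 8 of its 10 genes lay below 0 with a median of −0.06. For the other lists that comparison gave medians of −0.01 for SREBP control, −0.02 for efflux and −0.03 for fatty acid synthesis.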

How the data were processed

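RNA was extracted from midbrain with an RNeasy kit and sequenced on an Illumina NovaSeq. The authors deposited, for each experiment, a table of read counts per gene and FPKM per mouse, the counts made with featureCounts according to the study's methods. The submitters' processing notes name HISAT, StringTie, edgeR and mm9, but the deposited gene coordinates were those of GRCm38, so that coordinates are given in that build. Whether counting used strand is not given in the sources used here. In the deposited FPKM columns a value of none was written as 0 in one table and as a small constant in the other.

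Members were the genes with either KEGG pathway, and members and gene lists were chosen with earlier results of these data known. Counts were analysed in R 4.3.3 with edgeR 4.0.16: filterByExpr (minimum count 10, minimum total 15), TMM scaling, and the quasi-likelihood F-test on all groups of an experiment in 1 fit, with Benjamini-Hochberg adjustment over all tested genes. CPM values are counts per 1e+06 counts after TMM scaling, fold changes are log2 differences from that fit, and its SE is the estimate divided by the square root of F. Each comparison except the interaction set 3 mice against 3, for which an exact permutation test cannot go below 0.1, so that none was run. The interaction drew on all 12 mice of the delayed treatment experiment. P-values set a group difference against the spread between mice of the same group, pooled over the groups of the experiment and moderated across genes.

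Genes named were those with an adjusted p under 0.05, the 5 members of smallest p in each of 8 comparisons, Hmgcs1, Sqle, Fdps, Fdft1, Lss, Cyp51 and Dhcr7, Srebf2 and Insig1, members not tested, and the 3 members of largest within-group SD in each experiment. Acat2, Mvd, Nus1, Fnta, Fntb, Pdss1, Pdss2, Pmvk, Idi1 and Acat1 were further named, outside that rule in some comparisons, after their values were seen. Some genes that the rule names are not reported here. Alternatives were DESeq2 1.42.0 without the filter, limma 3.58.1 on log2(FPKM + 1) and log2(FPKM + 0.1), median ratio scaling, other filters, fits of the compared groups alone, a replicate block and each mouse left out. The scripts were tested on simulated data. Promoter windows came from RefSeq (GRCm38.p6), and proteins were not used here. Figures were drawn with matplotlib 3.10.9.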

Additional observations from a re-analysis of the deposited data

How the results depend on the processing

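Under the alternatives, 379 of 388 summary values of the set were scored as the same as the main result. That score did not require the same sign or size of core medians near 0. The core median of the interaction, for example, ranged from −0.061 to 0.079. Of 921 fold changes of named genes, 907 kept their sign and their side of the threshold. With DESeq2 without a filter on low counts, 1 member was called for irisin pre-treatment against MPTP (Cyp51, −0.38) and 3 against control (Acat2, −0.76, Dhdds, −0.53, and Hmgcs1, −0.47), all lower. Shares of all genes are given for the main edgeR fit only, so that counts of members under the alternatives have none beside them. Adjusted p over the alternatives ranged from 0.0344 to 0.707 for Cyp51 against MPTP and from 0.000157 to 0.451 for Acat2 against control. Leaving out single mice, the core median for irisin pre-treatment against MPTP ranged from −0.26 to −0.12, the highest without MPTP mouse 2, and the number of members lower at an unadjusted p under 0.05 from 6 to 11. For MPTP against control in the pre-treatment experiment the core median ranged from −0.040, without control mouse 1, to 0.050. In the delayed treatment experiment the core median ranged from −0.050 to 0.11 for MPTP against control and from −0.21 to −0.034 for irisin alone. Fdft1 ranged from −0.39 to 0.064 for irisin pre-treatment against MPTP, reversed without MPTP mouse 2. For delayed irisin against MPTP, Hmgcs1 ranged from −0.11 to 0.016, Cyp51 from −0.10 to 0.025, Fdft1 from −0.28 to 0.077 and Lss from −0.023 to 0.12. Without the mice whose summed choroid plexus markers reached 1000 CPM, a setting chosen after seeing the data, irisin pre-treatment against MPTP gave a core median of −0.12, 6 members lower and Fdft1 at 0.064. The cause of these differences was not tested.

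Replicate numbers did not pair the mice: deviations of same-numbered mice correlated between −0.10 and 0.16 in the pre-treatment experiment and between −0.08 and 0.04 in the delayed treatment experiment. With the replicate block, 0 members were called in each comparison, and irisin pre-treatment against MPTP gave a core median of −0.22 with 10 members lower at an unadjusted p under 0.05. Against control the block gave −0.16 and 7 members lower. With 3 mice a group, differences of the size seen here did not pass the adjustment over all genes by edgeR, and a p that misses the threshold does not show that levels were equal.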
